A study of Mus musculus with 2 samples.

Results

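Ifit1, Ifit3 and Rsad2 are 3 antiviral genes that interferon switches on. Among the blood endothelial cells (BECs) of 2 mouse tumor libraries, 405 of 17556 cells were non-cycling and carried at least 5 transcripts of these genes together. These interferon-responding BECs, called members in what follows, made up 1.67% of the BECs of a pancreatic tumor library (120 of 7204 cells, exact 95% interval 1.38 to 1.99%) and 2.75% of those of a breast tumor library (285 of 10352 cells, 2.45 to 3.09%). The threshold is a count of transcripts that is not scaled for depth. With cells thinned to 2000 transcripts the shares were 0.930% (43 of 4626 cells) and 1.56% (144 of 9203 cells), in the same order. This thinning left out 2578 and 1149 BECs that held fewer transcripts. With a threshold of 10 per 10000 transcripts of the cell the shares were 6.05% and 3.44%, in the other order. Members were chosen in 3 steps. A barcode was kept when it had at least 500 genes and under 10% mitochondrial transcripts. It counted as a BEC when it held at least 2 unique molecular identifiers (UMIs, each 1 captured transcript) of Pecam1, Cdh5 and Egfl7 together and at most 1 of the genes Ptprc, Col1a2, Epcam, Mmrn1 and Notch3, which mark leukocytes, fibroblasts, epithelium, lymphatic endothelium and mural cells. A member then needed at least 5 UMIs of Ifit1, Ifit3 and Rsad2 together, a number called the rule sum, and at most 1 UMI of the proliferation genes Top2a and Mki67. Members were compared with reference BECs, the non-cycling BECs of the same library with a rule sum of 0, of which there were 4843 in the pancreatic and 7160 in the breast tumor library. The 8 gate genes above, the 3 rule genes and the 2 proliferation genes chose the cells, and their values are not results.

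The study profiled BECs sorted from tumors grown in wild-type C57BL6 mice, females implanted orthotopically at 6 weeks of age with 100000 tumor cells. KPC cells are a pancreatic ductal adenocarcinoma line from mice in which p48-Cre drives tumor formation in the pancreas, and PyMT cells are a mammary carcinoma line from mice carrying the MMTV-driven polyoma middle T antigen. Tumors were digested 10 days after implantation, depleted of CD45+, EpCAM+, Ter119+, podoplanin+ and dying cells, and sorted for BECs before droplet sequencing of transcript 3' ends. Each tumor model gave 1 library, the number of mice behind each was not given in the sources used here, and both hosts were untreated, so model, library and tumor site cannot be told apart. The KPC library held 10236 barcodes and 44441942 UMIs, with a median of 2958 UMIs per barcode. The PyMT library held 12464 barcodes and 55547926 UMIs, with a median of 3805. The 2 libraries shared 170 barcode sequences, of which 1 was a KPC member and none was a member in both.

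Interferons are secreted proteins that warn neighbouring cells of infection or damage. Type I interferons bind Ifnar1 and Ifnar2, type II interferon binds Ifngr1 and Ifngr2, and the Jak kinases on these receptors phosphorylate transcription factors that enter the nucleus and switch on interferon-stimulated genes. The products of these genes sense or destroy foreign nucleic acid, restrict pathogens in vacuoles, load peptides on major histocompatibility complex (MHC) class I molecules and draw in T cells. In tumor vessels the response is known for chemokines such as Cxcl9 and Cxcl10 that recruit T cells and for limits on vessel growth.

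Levels are given as UMIs of a gene per 1000000 UMIs summed over the cells of a group (CPM), and differences as the log2 of members over reference BECs in the same library. With 1 library per tumor model no test between samples was possible. Intervals are exact 95% intervals, and they cover counting error alone. A gene was called higher or lower in members when it differed by at least 2-fold and reached 10 CPM over all BECs of its library. The members are among these BECs, so a gene can pass through their UMIs alone. Of the genes called higher, 3 in KPC and 8 in PyMT did so: over the BECs that are not members, 129 of 7936 genes that reached 10 CPM were higher in KPC (1.63%) and 135 of 7457 in PyMT (1.81%).

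The rule genes describe how strongly the members were marked. The median rule sum was 7 in KPC members, with quartiles of 5 and 11 and a highest value of 187, and 9 in PyMT members, with quartiles of 6 and 17 and a highest value of 72. All 3 rule genes were seen in 71 of 120 KPC members (59.2%) and in 187 of 285 PyMT members (65.6%), and a single one of them in 13 members of each library. Ifit1, which encodes a protein that binds foreign RNA caps (chr19:34640871-34650009), reached 860 CPM in KPC and 812 CPM in PyMT members. Rsad2, which encodes viperin (chr12:26442746-26456452), reached 1078 and 1257 CPM, and Ifit3 (chr19:34583531-34588731) 723 and 630 CPM. Coordinates here are on the mm10 (GRCm38) mouse genome. Members were sequenced more deeply than reference BECs, with medians of 3892 against 2566 UMIs per cell in KPC and 4549 against 3625 in PyMT, and the rule counts UMIs without scaling for depth. Their mitochondrial shares were low, with medians of 2.25% against 2.58% in KPC and 2.68% against 2.88% in PyMT.

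Cells on either side of the threshold were compared for 4 interferon genes. The 59 KPC cells with a rule sum of 4 held 501 CPM of Isg15 and the 36 cells with a rule sum of 5 held 529 CPM, while in PyMT the 64 cells at 4 held 551 CPM and the 52 cells at 5 held 565 CPM. Cxcl10 stood further apart, at 47.9 against 223 CPM in KPC and 68.5 against 110 CPM in PyMT. Irf7 was at 266 against 179 CPM in KPC and 209 against 223 CPM in PyMT, and Iigp1 at 558 against 529 CPM and 186 against 206 CPM. The counting intervals at 4 and at 5 overlapped for each of the 4 genes in both libraries, except for Cxcl10 in KPC (23.9 to 85.7 and 155 to 310 CPM).

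Outside the rule, 147 measured genes stood in 8 lists of the interferon system, which are nucleic acid sensors with their adaptors, transcription factors, the ISG15 system, direct antiviral effectors, PARP and TRIM family genes, guanylate-binding and immunity-related GTPases, MHC class I presentation, and MHC class II with genes that lean on interferon gamma. Ligands, receptors, chemokines and negative regulators are lists outside these 8. The 147 genes were chosen as known interferon genes, and as a set they were higher in members of both libraries. In KPC members 93 of the 147 were at least 2-fold higher and none was 2-fold lower, with a median log2 ratio of 1.57, against a median of -0.07 over all genes tested. In PyMT members 103 were at least 2-fold higher and none lower, with a median of 1.87, against -0.07 over all genes. Of the genes of these lists that reached 10 CPM, 67 of 104 (64.4%) were higher in KPC and 74 of 102 (72.5%) in PyMT. With the level taken over the BECs that are not members they were 66 of 103 (64.1%) and 69 of 97 (71.1%). The background over all genes tested was 132 of 7926 genes higher (1.67%) and 399 lower (5.03%) in KPC, and 143 of 7445 higher (1.92%) and 85 lower (1.14%) in PyMT. In both libraries together 89 of 7277 genes were higher (1.22%) and 16 were lower (0.22%).

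**Figure D1:**
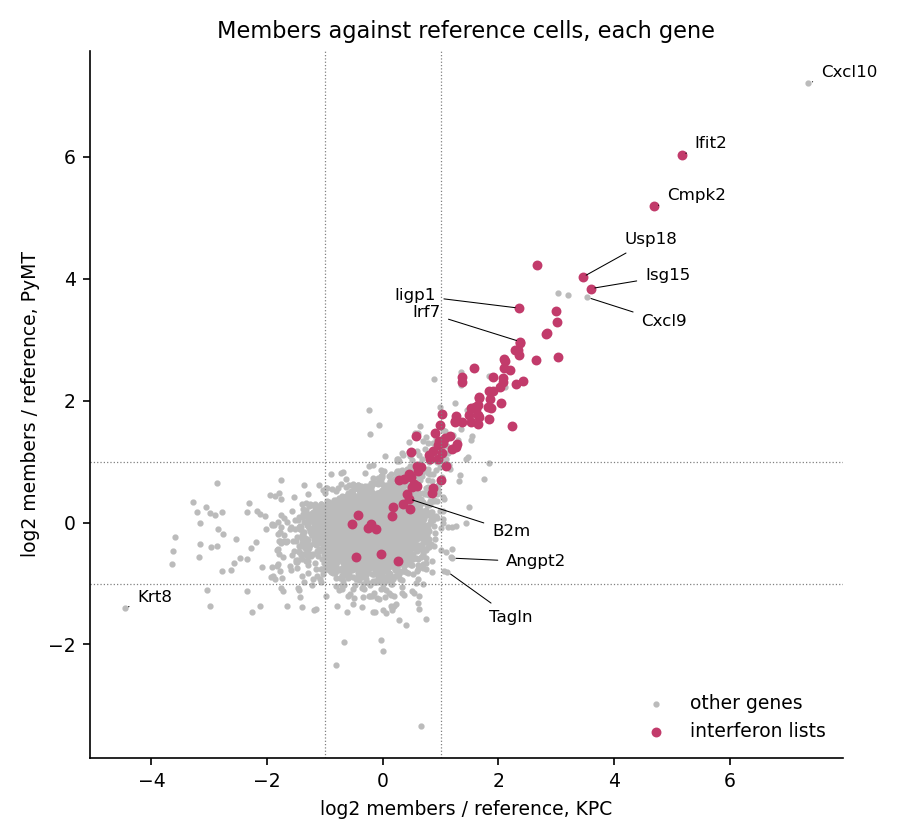
Log2 ratio of members over reference BECs for every gene that reached 10 CPM in both libraries, with KPC on the x axis and PyMT on the y axis; red points are genes of the 8 interferon lists, grey points all others, and dotted lines mark 2-fold. Red points fill the upper right corner, Cxcl10 lies farthest out at 7.36 and 7.21, and most grey points gather near 0.

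The ligands of the pathway were not seen in the members. All 11 interferon genes in the lists, among them Ifnb1, 4 Ifna genes with Ifnab, Ifne, Ifnk, Ifng, Ifnl2 and Ifnl3, had 0 UMIs in the members of both libraries. Reference BECs held 2 UMIs of Ifng in KPC and none of any ligand in PyMT. A count of 0 allows up to 3 UMIs per library, or 5.46 CPM in KPC and 1.98 CPM in PyMT members, so low expression was not detectable at this depth.

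Receptors and their kinases were present in members at about the level of the reference BECs. Of the 9 genes, 7 reached 10 CPM and none of them was 2-fold apart in either library, with medians over the list of 0.29 in KPC and 0.21 in PyMT. Ifnar1, a chain of the type I receptor, stood at 63.7 against 51.8 CPM in KPC (log2 0.30, -0.23 to 0.79) and at 69.8 against 57.1 CPM in PyMT (0.29, -0.01 to 0.57). Jak1, the kinase both receptor types use, stood at 208 against 205 CPM and 224 against 206 CPM. Ifngr1, the ligand-binding chain of the type II receptor, had log2 ratios of 0.28 in KPC and -0.35 in PyMT. Ifnlr1, the chain specific to type III interferon, was at 0 in the members of both libraries.

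Genes that sense foreign nucleic acid were higher in members. Among those reaching 10 CPM, 7 of 9 were higher in KPC and 9 of 10 in PyMT, where Dhx58, a relative of the RNA sensors, passed through the members alone. Ifih1, the RNA sensor MDA5, stood at 162 against 25.9 CPM in KPC (log2 2.65, 2.30 to 2.98) and at 105 against 16.6 CPM in PyMT (2.66, 2.40 to 2.92). Zbp1, a sensor of Z-form nucleic acid, stood at 72.8 against 8.91 CPM and at 114 against 17.3 CPM, with log2 ratios of 3.03 and 2.72. The RIG-I gene Ddx58 differed less, with log2 ratios of 1.52 and 1.64, and Tlr3, an endosomal receptor for double-stranded RNA, had ratios of 1.49 and 1.76. Eif2ak2, the kinase PKR that halts translation, had ratios of 1.66 and 2.05. The adaptors were not apart from the reference, since Tmem173, which encodes STING, had ratios of 0.18 and 0.26, and Mavs -0.05 and -0.01 at under 10 CPM.

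The Ifi200 family on chromosome 1, whose products bind DNA, gave some of the highest ratios of the sensors. Ifi204 stood at 233 against 28.8 CPM in KPC (log2 3.02) and 234 against 24 CPM in PyMT (3.28). Ifi211 (chr1:173896345-173913046) stood at 87.4 against 9.47 CPM (3.21) and 92.9 against 6.97 CPM (3.74). Ifi203 had ratios of 2.11 and 2.64, and Mndal 1.84 and 2.41, while Aim2, which belongs to the same family, had -0.55 and -0.42 from 3 and 12 member UMIs. These genes are close copies, and Ifi211 and Mndal overlap on the same strand, so the split of reads among them is uncertain.

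Among the transcription factors Stat2 and the Irf genes differed in how far apart they stood. Irf7, the factor that amplifies type I interferon responses (chr7:141262706-141266481), stood at 368 against 70.7 CPM in KPC (log2 2.38, 2.16 to 2.60) and at 395 against 50.6 CPM in PyMT (2.97, 2.83 to 3.10), and it was seen in 63.3% and 67.0% of members. Stat2, which binds DNA together with Irf9, stood at 58.3 against 22.6 CPM (1.37) and 81.0 against 15.4 CPM (2.39). Irf1, a factor shared by type I and type II responses, had ratios of 1.17 and 1.42. Irf9 was called higher in PyMT at 1.05 and not in KPC at 0.81. Irf3, the factor that sensors activate without new synthesis, had ratios of -0.04 and -0.52, and Irf2, Irf8 and Etv6 were not 2-fold apart in either library. In all, 4 of the 9 factors that reached 10 CPM were higher in KPC and 5 of 9 in PyMT.

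The ISG15 system, which attaches a small ubiquitin-like protein to others, was called higher in 5 of its 6 genes in both libraries. Isg15 itself (chr4:156199424-156200818) stood at 1096 against 90.6 CPM in KPC, 12.1-fold higher (log2 3.60, 3.46 to 3.74), and at 1184 against 82.8 CPM in PyMT, 14.3-fold higher (3.84, 3.75 to 3.93). It was seen in 88.3% of KPC and 91.9% of PyMT members against 21.6% and 22.7% of the shallower reference BECs. The conjugating enzyme Ube2l6 had ratios of 1.90 and 2.38, and the ligase Herc6 2.85 and 3.11. Usp18, which removes ISG15 and also blocks the type I receptor (chr6:121245906-121270917), stood at 257 against 23.4 CPM (3.45) and 275 against 16.9 CPM (4.03). The activating enzyme Uba7 was the exception, with ratios of 0.66 and 0.91.

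Direct antiviral effectors were called higher in 11 of 17 genes in KPC and 15 of 18 in PyMT that reached 10 CPM. Ifit2 in both libraries and Oasl1 and Isg20 in PyMT reached it through the members alone, and without them the counts were 10 of 16 and 12 of 15. Ifit2, which lies beside the rule genes Ifit3 and Ifit1 (chr19:34550694-34576419), stood at 220 against 6.11 CPM in KPC (log2 5.17, 4.78 to 5.57) and 256 against 3.91 CPM in PyMT (6.03, 5.73 to 6.35). Cmpk2, a mitochondrial nucleotide kinase next to Rsad2 (chr12:26469204-26479837), stood at 229 against 8.85 CPM (4.70) and 274 against 7.52 CPM (5.19). Among the 20 genes of highest ratio these 2 are the neighbours of the rule genes in the genome, and they follow Cxcl10 at the top. Ifit1bl1 and Ifit3b, copies of rule genes, had ratios of 10.5 and 9.39 and of 5.56 and 5.73, but reads may be split between copies and these values are uncertain.

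The other effectors differed widely in their ratios. Isg20, an RNA exonuclease, stood at 65.6 against 10.3 CPM in KPC (log2 2.66) and 128 against 6.90 CPM in PyMT (4.22). Oasl2, of the oligoadenylate synthetase family, had ratios of 2.20 and 2.51, and Rtp4 stood at 521 against 140 CPM (1.90) and 423 against 94.3 CPM (2.17). Bst2, which tethers budding virus to the cell surface, stood at 1084 against 529 CPM (1.03) and 1161 against 472 CPM (1.30). Ifitm3, which blocks viral entry, was present in 100% of members and stood at 5436 against 3549 CPM in KPC, a log2 ratio of 0.62, with 0.84 in PyMT, so it missed 2-fold. Ifitm2, with -0.26 and -0.09, and Plscr1, with -0.53 and -0.03, were not higher. Mx1, a dynamin-like antiviral GTPase, had 5 UMIs in KPC and 28 in PyMT members and was under 10 CPM over all BECs, while Ifi44l and Trex1 had 0 UMIs in both groups.

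The ADP-ribosyltransferases, TRIM ligases and other genes of the wider response gave called differences in 24 of 30 genes in KPC and 23 of 30 in PyMT, or 22 of 29 in PyMT without Trim34a, which passed through the members alone. Slfn2, which keeps T cells quiescent, stood at 188 against 36.1 CPM (log2 2.38) and 166 against 21.7 CPM (2.94). Tor3a, an endoplasmic reticulum ATPase, had ratios of 2.34 and 2.84, Daxx, a nuclear chaperone for histones, 2.30 and 2.27, and Parp14 2.08 and 2.30. Phf11b reached 3.74 and 4.46 at under 10 CPM over all BECs. Some genes of this list were not 2-fold apart in either library. Ifi27 had ratios of -0.46 and -0.56, Ifi27l2a 0.17 and 0.11, Ly6a, the surface antigen Sca-1, 0.28 and 0.70, and Ly6e 0.59 and 0.60. Cd274, which encodes the T cell inhibitor PD-L1, had 11 UMIs in KPC and 29 in PyMT members, with ratios of 2.97 and 4.00, and was under 10 CPM over all BECs.

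Every guanylate-binding protein and immunity-related GTPase that reached 10 CPM was called higher, 10 of 10 in KPC and 9 of 9 in PyMT, and the medians over the whole list were 2.40 and 2.80. These proteins attack the vacuoles of intracellular pathogens. Gbp2 (chr3:142620602-142638008) stood at 311 against 44.1 CPM in KPC (log2 2.82) and at 317 against 37.0 CPM in PyMT (3.10). In KPC 28.7% of its member UMIs came from 1 cell, the member with a rule sum of 187, and without that cell the ratio was 2.36. Iigp1 stood at 710 against 138 CPM (2.36, 2.20 to 2.52) and 570 against 49.8 CPM (3.52, 3.39 to 3.64), and was seen in 79.2% and 73.3% of members. Igtp (chr11:58199556-58207591) stood at 231 against 28.9 CPM (3.0) and 170 against 15.3 CPM (3.47). Ifi47 had ratios of 2.36 and 2.75, Irgm1 2.28 and 2.82, Gbp3 2.43 and 2.32, Gbp4 2.10 and 2.69, and Gbp7 2.08 and 2.38. Gm4951, a related GTPase outside the list, had 3.03 and 3.77. Igtp overlaps Irgm2, Ifi47 overlaps Olfr56 and Gm4951 overlaps Gm5970 on the same strand, and reads of each pair cannot be fully told apart.

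MHC class I presentation differed from gene to gene. The peptide transporter Tap1 had the highest ratio of the genes called, at 157 against 43.4 CPM in KPC (log2 1.85) and 165 against 40.3 CPM in PyMT (2.03). The immunoproteasome subunit Psmb8 stood at 528 against 218 CPM (1.28) and 478 against 196 CPM (1.29). Psmb9, Psmb10 and Tap2 were called higher in PyMT, at 1.11, 1.33 and 1.04, and not in KPC, at 0.80, 0.97 and 0.96. The heavy chains were split. The nonclassical chain H2-T22 was called higher in both libraries, at 237 against 91.9 CPM (1.37) and 227 against 72.4 CPM (1.65). H2-Q6 and H2-T23 were called higher in PyMT, at 1.46 and 1.42, and not in KPC, at 0.91 and 0.58, and H2-Q7 had ratios of 0.86 and 0.57. The classical chains and B2m, the light chain, were not 2-fold apart. B2m stood at 5677 against 4167 CPM (0.45, 0.39 to 0.50) and 4576 against 3489 CPM (0.39, 0.36 to 0.43), H2-K1 at ratios of 0.42 and 0.47, and H2-D1 at 0.35 and 0.31. The chaperones Calr and Pdia3 were not higher. In all, 3 of 20 genes were higher in KPC and 8 of 20 in PyMT.

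MHC class II genes and genes that lean on interferon gamma had ratios of at least 2-fold in 7 of 7 genes in KPC (median 1.61) and in 4 of 6 in PyMT (median 1.90), but 3 of them reached 10 CPM in KPC and none in PyMT, and the KPC values rest in part on 1 cell. Ciita, the regulator of MHC class II, and Ido1 had 0 UMIs in the members of both libraries. In KPC Cd74, the class II invariant chain, was called higher at 61.9 against 20.3 CPM (1.61), but 94.1% of its 34 UMIs came from 1 cell, and H2-Ab1 had 88.0% of its 25 UMIs in 1 cell. One KPC member held 53 of the 64 UMIs of leukocyte markers found among the members. Without cells holding at least 3 leukocyte marker UMIs the ratio of Cd74 was -1.96 and the list's median was -0.05. PyMT members held 5 UMIs of Cd74. Socs1, a feedback inhibitor that both interferon types induce, had ratios of 1.39 and 2.31.

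**Figure D2:**
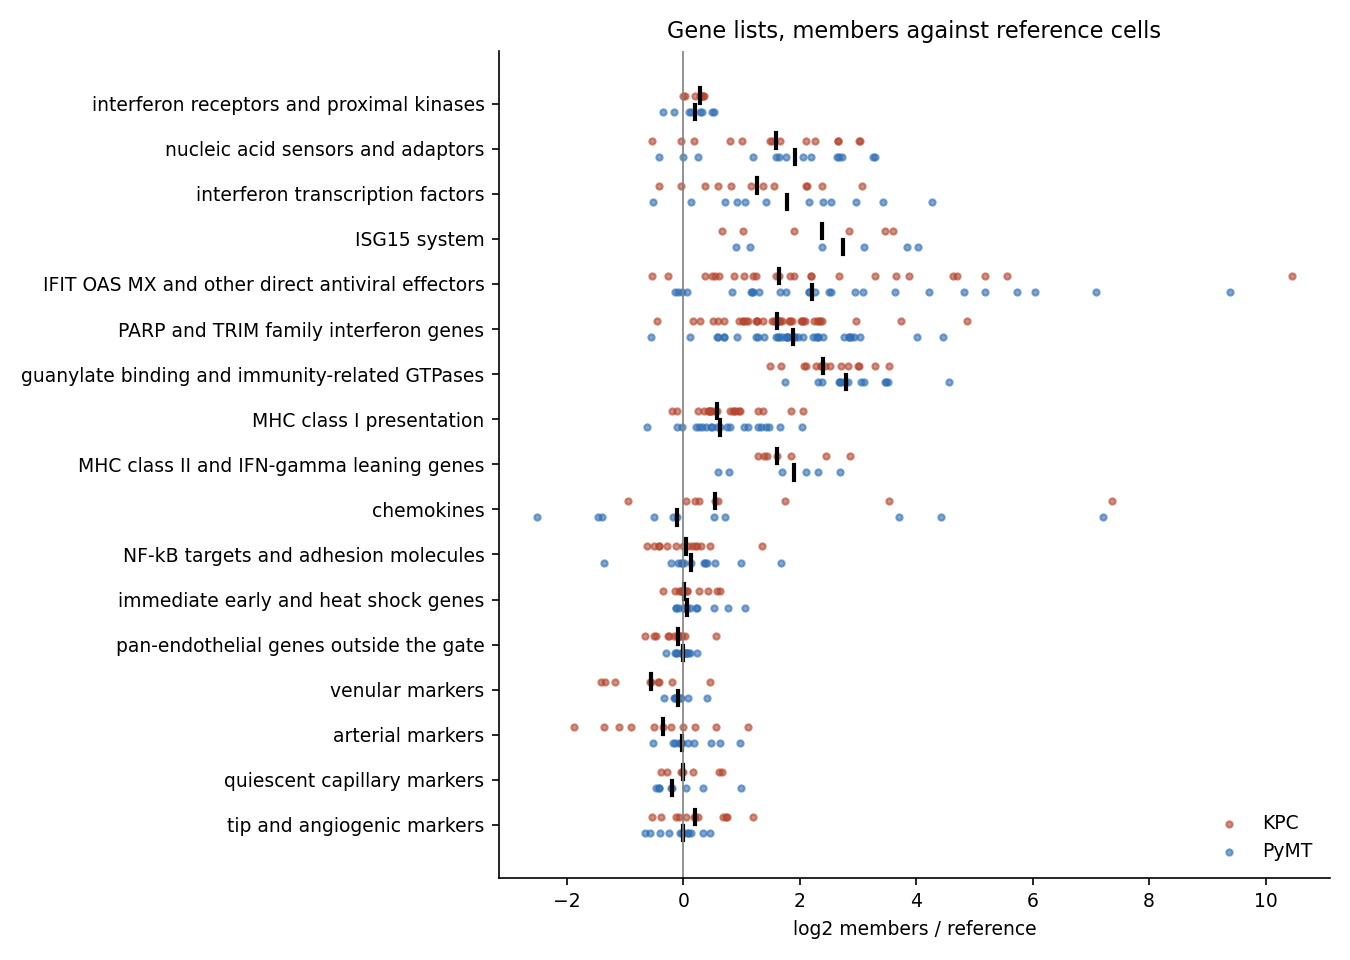
Log2 ratios of members over reference BECs for the genes of each list, with 1 dot per gene that has a ratio in KPC (red) and PyMT (blue). Black bars are at the medians, a grey line marks 0, and genes under 10 CPM are included. The GTPases have medians of 2.40 and 2.80 and the ISG15 system 2.37 and 2.75, while receptors, NF-kB targets, immediate early genes and pan-endothelial genes lie near 0.

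Cxcl10 separated members from reference BECs more than any other gene called. This chemokine for T cells that carry Cxcr3 (chr5:92346638-92348889) stood at 1033 CPM in KPC members (949 to 1121) against 6.29 CPM, 164-fold higher (log2 7.36, 7.05 to 7.68). In PyMT members it stood at 1331 CPM (1274 to 1390.5) against 8.98 CPM, 148-fold higher (7.21, 7.03 to 7.40). It was unevenly spread. A UMI of Cxcl10 was seen in 30.0% of KPC members (22 to 39%) and in 55.8% of PyMT members, against 1.32% and 1.96% of reference BECs. The member with a rule sum of 187 held 32.6% of the KPC total, and without it Cxcl10 stood at 712 CPM (log2 6.82). The tenth of members with the most Cxcl10, 12 cells in KPC and 29 in PyMT, held 85.4% and 52.7% of its UMIs, while the same number of cells held 37.7% and 28.2% of Isg15.

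Cxcl9, a sister chemokine for the same receptor (chr5:92321347-92328079), was seen in more PyMT than KPC members and was uneven in both. PyMT members held 542 UMIs, 357 against 27.6 CPM (log2 3.70, 3.54 to 3.85), in 40.7% of cells, with 65.1% of them in the 29 highest members. KPC members held 38 UMIs, 69.2 against 5.98 CPM (3.53), in 5.83% of cells, with 71.1% of them in the member with a rule sum of 187. Without that cell the KPC ratio was 1.78 (0.73 to 2.68) from 11 UMIs. Reference BECs of KPC also held less Cxcl9 than those of PyMT. The other chemokines were mixed or rested on few UMIs. Cxcl12, which holds Cxcr4-bearing cells, had ratios of 0.19 and -0.50. The neutrophil chemokine Cxcl1 had ratios of 0.59 in KPC and -1.47 in PyMT, and Cxcl2 0.05 and -1.40, with 3 and 1 UMIs in PyMT members. Ccl7 had -0.95 and -2.52 from 2 and 1 member UMIs. Ccl2 was called higher in KPC at 1.75, with 81.6% of its 38 UMIs in 1 cell, and stood at 0.72 in PyMT. Ccl5 had 0 UMIs in KPC members and 69 in PyMT members, the latter in 1.40% of cells, at 45.4 against 2.11 CPM (4.43) and under 10 CPM over all BECs.

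Feedback inhibitors beyond Usp18, Isg15 and Socs1 were not 2-fold apart. Socs3, which dampens interleukin-6 type signals, had ratios of 0.15 and -0.03, and Socs2 0.29 and 0.32. The phosphatase Ptpn6 had 0 UMIs in the members of both libraries, and the other phosphatases and the Pias genes had ratios between -0.56 and 0.32.

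A gene was named among the highest when it was called higher in both libraries and its smaller log2 ratio was among the 20 largest. These were, in order, Cxcl10, Ifit2, Cmpk2, Isg15, Cxcl9, Usp18, Ifi211, Gm4951, Ifi204, Igtp, Herc6, Gbp2, Zbp1, Isg20, Ifih1, Irf7, Slfn2, Iigp1, Ifi47 and Tor3a. Ifit2 in both libraries and Ifi211, Gm4951 and Isg20 in PyMT passed the level through the members alone, at 7.96 CPM and at 8.20, 8.96, 8.31 and 9.13 CPM over the other BECs. Neighbours late in this order do not differ beyond counting error in KPC, where the ratios from Irf7 to Tor3a ran from 2.38 to 2.34. In PyMT some of them do, such as Iigp1 at 3.52 (3.39 to 3.64) and Ifi47 at 2.75 (2.56 to 2.95).

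**Figure D3:**
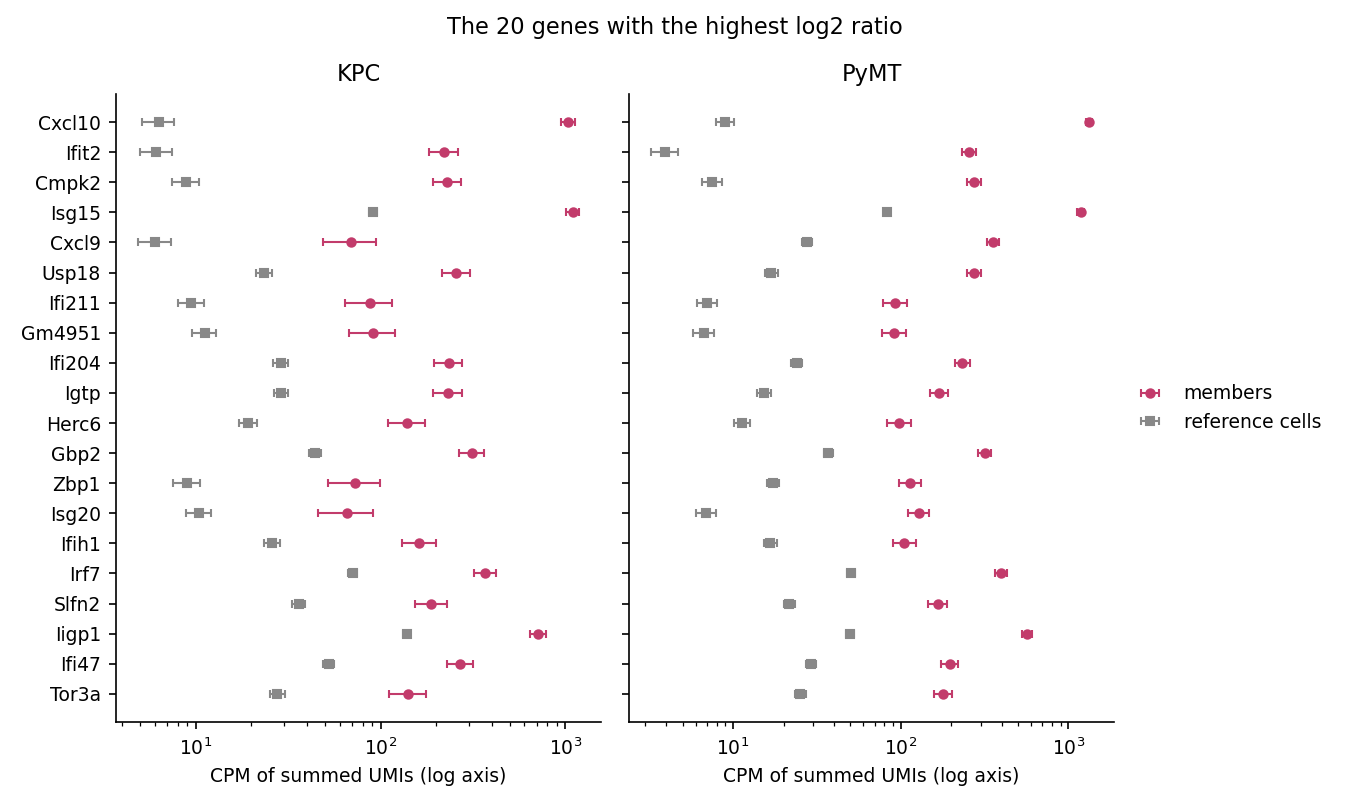
Level in CPM on a log axis of the 20 highest genes in members (red circles) and reference BECs (grey squares) of KPC and PyMT, with exact 95% counting intervals as bars. In each library every member point lies to the right of its reference point, from Cxcl10 at 1033 against 6.29 CPM in KPC to Tor3a at 140 against 27.6 CPM.

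Of the 89 genes higher in both libraries, 61 stood in the interferon lists and 28 did not, Cxcl10, Cxcl9, Ifi211 and Gm4951 among the latter. Trafd1, a zinc finger brake on innate signals, stood at 178 against 41.3 CPM in KPC (2.11) and 139 against 29.6 CPM in PyMT (2.23). Il18bp, a secreted decoy for interleukin-18, had ratios of 1.25 and 1.97. Lgals9, a galectin that binds T cell receptors such as Tim-3, stood at 515 against 244 CPM (1.08) and 688 against 310 CPM (1.15). Enzymes among the 28, named after their values were seen, were Nt5c3, a pyrimidine nucleotidase, at 1.46 and 1.84, Dck, deoxycytidine kinase, at 1.52 and 1.35, Nampt, which makes a precursor of NAD, at 1.30 and 1.35, and Gch1, the first enzyme of tetrahydrobiopterin synthesis, at 1.08 and 1.51. Tnfsf10, the death ligand TRAIL, stood at 92.9 against 36.3 CPM (1.36) and 59.3 against 10.7 CPM (2.47). Nupr1 had 66.2% of its KPC member UMIs in 1 cell.

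Because the highest genes moved together, the 250 bases before their starts were searched for 2 letter patterns on both strands. The core of the interferon-stimulated response element, to which type I interferon signals lead, was searched as GAAA, any 2 bases and GAAA, which reads TTTC, any 2 bases and TTTC on the other strand. The gamma-activated site, to which type II interferon signals lead, was searched as TTCNNNGAA, which reads the same on both strands, and the 2 patterns may overlap. Of the 20 highest genes 14 had an entry in the RefSeq promoter table for GRCm38.p6, and the first pattern was in 5 of them (35.7%). It was in 21 of 72 genes higher in both libraries (29.2%), in 8 of 23 of those outside the interferon lists (34.8%), in 0 of 14 genes lower in both, and in 936 of 27025 genes of the table (3.46%). The gamma-activated pattern was in 3 of the 14 (21.4%), in 12 of 72 genes higher in both (16.7%), in 0 of 14 lower genes and in 2197 genes of the table (8.13%). Of these 3, Ifit2 and Isg20 passed the level through the members alone in at least 1 library, which leaves Igtp. Ifi211, among the 5 with the first pattern, also passed that way in PyMT. The 72 genes include these 3 genes and the 23 include Ifi211, and shares without them were not computed. The share over the table covers genes that were not tested here, so it is not a background of expressed genes. The rule genes did not enter these counts. Promoters of 4 genes that hold the first pattern are shown, each 250 bases on the gene's strand ending at the base before the start, with matches in capitals.
Cxcl10: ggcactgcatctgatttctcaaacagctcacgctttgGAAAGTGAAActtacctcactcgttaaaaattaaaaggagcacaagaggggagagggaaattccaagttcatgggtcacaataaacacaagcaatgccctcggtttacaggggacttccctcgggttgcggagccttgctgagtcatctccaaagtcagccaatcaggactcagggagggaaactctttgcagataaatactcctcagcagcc
Isg15: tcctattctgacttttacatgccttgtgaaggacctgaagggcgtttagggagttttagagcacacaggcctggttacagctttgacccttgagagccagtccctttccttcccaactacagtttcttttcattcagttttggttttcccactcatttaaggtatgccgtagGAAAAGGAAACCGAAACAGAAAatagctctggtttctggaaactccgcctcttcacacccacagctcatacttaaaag
Ifi211: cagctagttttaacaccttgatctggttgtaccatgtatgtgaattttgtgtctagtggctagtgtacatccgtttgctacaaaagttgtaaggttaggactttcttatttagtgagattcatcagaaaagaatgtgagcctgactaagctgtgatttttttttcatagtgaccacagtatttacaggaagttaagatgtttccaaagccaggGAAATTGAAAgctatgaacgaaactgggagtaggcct
Igtp: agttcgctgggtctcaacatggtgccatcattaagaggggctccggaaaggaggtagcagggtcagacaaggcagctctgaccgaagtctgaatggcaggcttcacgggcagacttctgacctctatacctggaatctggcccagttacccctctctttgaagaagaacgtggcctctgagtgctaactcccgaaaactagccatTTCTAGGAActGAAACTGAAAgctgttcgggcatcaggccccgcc
The windows are chr5:92348890-92349139 on the minus strand for Cxcl10, chr4:156200819-156201068 on the minus strand for Isg15, chr1:173913047-173913296 on the minus strand for Ifi211 and chr11:58199306-58199555 on the plus strand for Igtp. In Isg15 the capitals hold 3 overlapping matches, the nearest ending 56 bases before the start, and in Ifi211 the match ends 27 bases before it. In Igtp the gamma-activated match ends 36 and the response element match 24 bases before the start, and in Cxcl10 the match ends 203 bases before it. Ifit2 and Isg20 held the gamma-activated pattern alone, and Cmpk2, Cxcl9, Herc6, Ifih1, Irf7, Slfn2 and Ifi47 held neither in this window. A match of letters is a description and was not tested for binding.

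Targets of NF-kB and immediate early genes had medians near 0 in members. None of the 11 NF-kB targets and adhesion genes that reached 10 CPM was higher in KPC, and none of 10 in PyMT, with list medians of 0.04 and 0.14. In PyMT 1 of the 10 was called lower (10%), against 1.14% of all genes tested. Nfkbia, the inhibitor that NF-kB itself induces, stood at 845 against 800 CPM in KPC and 530 against 536 CPM in PyMT. Vcam1, which leukocytes bind, had ratios of 0.45 and 0.40, and Icam1 0.19 in KPC and -1.37 in PyMT from 20 member UMIs. Immediate early and heat shock genes, which are known to respond to tissue digestion, had medians of 0.01 and 0.06. Fos had ratios of -0.05 and 0.23 and Atf3 0.57 and 0.52, while the chaperone Hspa1a was called higher in PyMT at 1.05 and stood at 0.27 in KPC. Of the cell death genes that reached 10 CPM, 1 of 14 was called higher and 1 lower in KPC and 3 of 13 were called higher in PyMT, with list medians of 0.17 and 0.41. Tnfsf10 was called higher in both libraries, and Cdkn1a, the p21 cell cycle inhibitor, was called in PyMT at 271 against 109 CPM (1.32) and not in KPC at 344 against 253 CPM (0.45). Casp4, an inflammatory caspase, had ratios of 0.79 and 1.03.

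The members were endothelial by genes that the gate did not use. All 14 pan-endothelial genes outside the gate reached 10 CPM in both libraries and none was 2-fold apart, with medians of -0.10 in KPC and 0.00 in PyMT. Kdr, the main receptor for vascular endothelial growth factor, stood at 528 against 570 CPM and 288 against 284 CPM. Emcn, a sialomucin of capillaries and veins, had ratios of -0.02 and 0.06 and was seen in 93.3% and 94.4% of members. The largest gap was in Cldn5, a tight junction claudin, at 164 against 258 CPM in KPC (-0.66, -0.98 to -0.36) and 453 against 492 CPM in PyMT (-0.12).

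Members were found among several kinds of vessel. Each cell with at least 2000 UMIs was thinned to that number and given a class when it held at least 3 UMIs of that class's markers. A cell could have more than 1 class. Shallower cells were left out, 25 members and 1961 reference BECs in KPC and 10 and 944 in PyMT, while shares without thinning cover all cells. In KPC 29.5% of members (20.6 to 39.7%) were in the venular class against 43.1% of reference BECs, and 38.9% (29.1 to 49.5%) were in the tip and angiogenic class against 25.6%. The capillary class held 35.8% against 27.4% and the arterial class 4.21% against 7.67%. Without thinning the venular shares were 43.3% and 43.0% and the tip shares 48.3% and 28.6%. In PyMT the venular shares were 28.4% and 31.8%, the capillary shares 57.1% and 55.4% and the tip shares 14.2% and 14.7% after thinning, or 62.1% against 53.5%, 81.4% against 73.7% and 32.3% against 28.3% without it, so the order of the venular and tip shares turned with thinning. The PyMT arterial shares were 7.27% and 5.28%, or 13.7% and 10.9% without thinning. Among single genes, Angpt2, which destabilizes vessels at sprouting fronts, was called higher in KPC members at 419 against 183 CPM (1.20) and stood at 83.0 against 124 CPM in PyMT (-0.58). The venular genes Ackr1, Cytl1 and Ctsh and the arterial genes Gja4, Efnb2 and Stmn2 were called lower in KPC, with Ackr1 at -1.42 and Gja4 at -1.37, and stood at -0.06 and -0.15 in PyMT. Of the 8 quiescent capillary markers none was 2-fold apart in either library. Their medians were -0.01 in KPC and -0.20 in PyMT, with 3 of 8 above 0 in each. Rgcc, 1 of those above 0 and a regulator of cell cycle progression, stood at 1455 against 917 CPM (0.67) and 1201 against 607 CPM (0.99).

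Each list of markers of other cells was at 0 in most members. The leukocyte list held 64 UMIs in KPC members, led by Lyz2 with 23 UMIs, and 114 of 120 members held none. The list stood at 117 CPM against 68.9 CPM in reference BECs (log2 0.76, 0.37 to 1.12). Without the 1 member that held 53 of the UMIs it stood at 20.2 CPM, while no reference cell was left out. In PyMT it held 34 UMIs, 22.4 CPM against 24.8 CPM, with 261 of 285 members at 0. Pericyte genes, led by Acta2 in KPC and Kcnj8 in PyMT, stood at 368 CPM in KPC members against 216 CPM, and at 123 against 122 CPM in PyMT. With the gate gene Notch3 counted and without the member highest for them, KPC members stood at 273 CPM against 217 CPM, and 90 of 120 KPC and 183 of 285 PyMT members held none. Of the 4 pericyte genes that reached 10 CPM in KPC, 2 were called higher and 1 lower. Acta2 and Rgs5 were higher at 1.04 and 1.07, with 35.5% and 50% of their UMIs in 1 cell each, Kcnj8 was lower at -1.04 from 7 member UMIs, and Abcc9 stood at -0.51. Lymphatic genes, led by Ccl21a, stood at 240 against 403 CPM in KPC and 333 against 406 CPM in PyMT. With the gate gene Mmrn1 counted, 1 member held 62 of their 133 UMIs in KPC and 143 of 515 in PyMT, and without it members stood at 130 and 246 CPM. Epithelial and tumor genes, led by Krt18, stood at 47.4 against 653 CPM in KPC members and reference BECs, and at 20.3 CPM without the member that held 15 of their 26 UMIs. The part of these markers in the results was not tested.

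Within the gate, levels climbed with the rule sum. In KPC Isg15 stood at 90.6 CPM in cells with a rule sum of 0, at 185 CPM at 1, 287 CPM at 2, 422 CPM at 3 or 4, 706 CPM at 5 to 9, 1172 CPM at 10 to 19 and 2707 CPM at 20 or more. In PyMT the same bins held 82.8, 208, 426, 472, 696, 1431 and 1926 CPM. Isg15 was thus already higher in cells with 1 UMI of the rule genes. Cxcl10 was at 6.29 CPM at 0 and 28.3 CPM at 1 in KPC, and at 8.98 and 23.8 CPM in PyMT. Most of its climb lay above the threshold, from 60.3 CPM at 3 or 4 to 226 CPM at 5 to 9 and 5128 CPM at 20 or more in KPC, and from 54.7 to 313 and 3632 CPM in PyMT. Irf7 ran from 70.7 to 906 CPM in KPC and from 50.6 to 590.1 CPM in PyMT. Gbp2 did not climb evenly in KPC, with 127 CPM at 5 to 9, 78.7 CPM at 10 to 19 and 1453 CPM at 20 or more, where the bin held 14 cells. B2m ran from 4167 to 6407 CPM in KPC and from 3489 to 4678 CPM in PyMT, a smaller factor than for the other interferon genes given here.

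**Figure D4:**
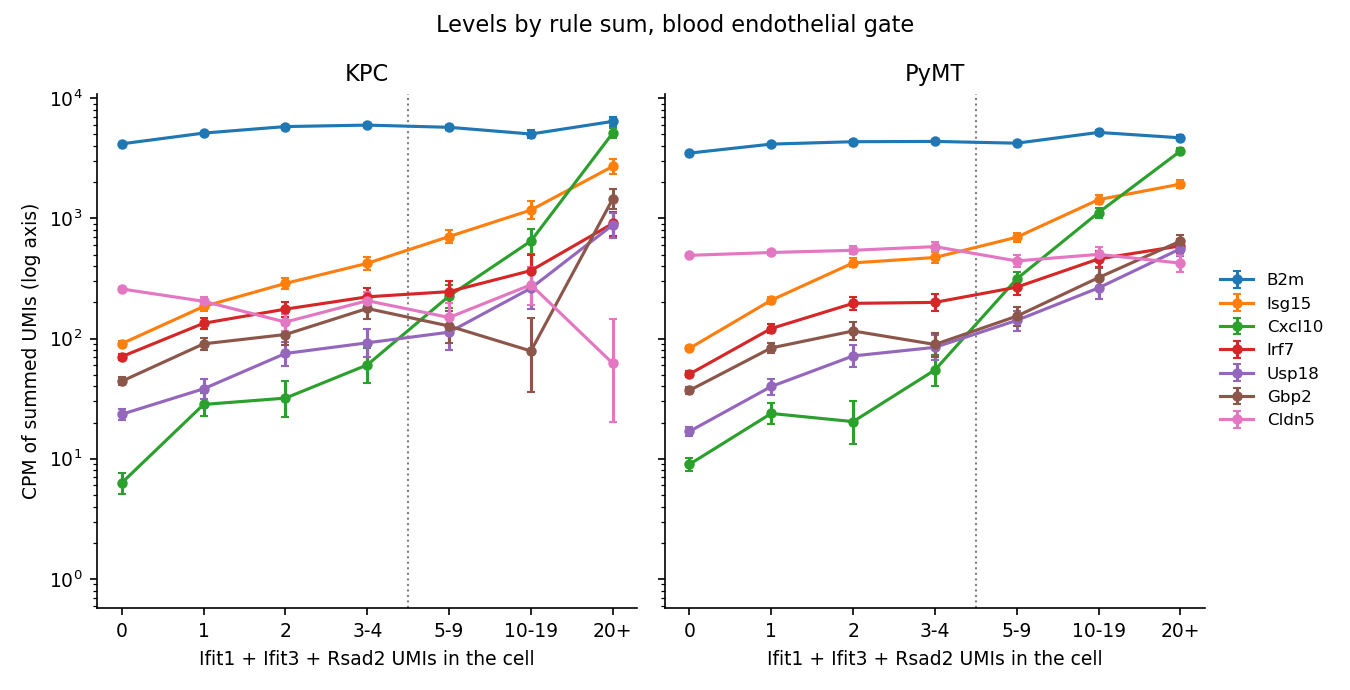
Level in CPM on a log axis of Isg15, Cxcl10, Irf7, Usp18, Gbp2, B2m and Cldn5 in non-cycling BECs grouped by rule sum, with exact 95% counting intervals as bars and a dotted line at the member threshold, for KPC and PyMT. Isg15 climbs through every bin, Cxcl10 climbs mostly above the threshold to 5128 CPM in KPC and 3632 CPM in PyMT, and B2m runs from 4167 to 6407 CPM and from 3489 to 4678 CPM.

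Single members carried many interferon genes at once. After thinning to 2000 UMIs, KPC members held a median of 29 of the 147 interferon list genes (quartiles 24.5 and 37, 95 cells, 25 shallower members left out), against 21 in cells with a rule sum of 1 to 4 and 16 in reference BECs (2882 cells). PyMT members held a median of 32 (quartiles 22 and 39, 275 cells, 10 left out), against 19 and 15 (6216 reference cells). The groups overlapped. Of the reference BECs 8.12% in KPC and 7.61% in PyMT reached the lower quartile of the members, and at 1000 UMIs per cell 27.0% and 15.2% did. The share of a cell's UMIs in the 6 interferon lists without MHC had a median of 2.27% in KPC members, from 0.577 to 8.56%, and of 2.32% in PyMT members, from 0.491 to 7.83%. In reference BECs the medians were 1.30 and 0.910%, and 30.6% and 11.7% of these cells lay above the lower quartile of the members.

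**Figure D5:**
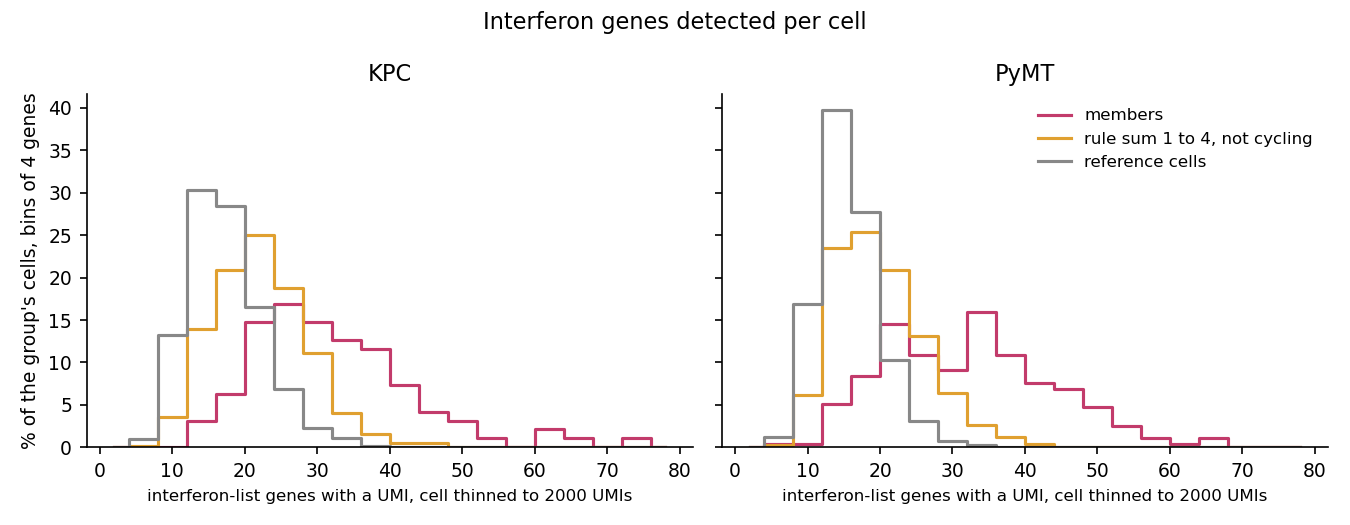
Number of the 147 interferon list genes with a UMI per cell after thinning to 2000 UMIs, as the percent of cells in bins of 4 genes, for members, cells with a rule sum of 1 to 4 and reference BECs of KPC and PyMT. Members lie to the right, with medians of 29 and 32 against 16 and 15 in reference BECs, and the distributions overlap.

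The GTPases marked a wider set of BECs than the rule. At 2000 UMIs, 66.3% of KPC members (63 of 95) and 60.4% of PyMT members (166 of 275) held at least 3 UMIs of the GTPase list, against 9.20% and 3.91% of reference BECs. Among the BECs that met this count, 556 in KPC and 573 in PyMT, 11.3% and 29.0% were members and 47.7% and 42.4% had a rule sum of 0. No GTPase UMI was seen in 11.6% and 14.2% of members.

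Genes lower in members were few in UMIs. The 16 genes called lower in both libraries had log2 ratios no lower than -1.47 in the library where they differed less, and the 15 that lead them held 1 to 7 UMIs in KPC members and 4 to 19 in PyMT members. They include Aurkb, a mitotic kinase, at -1.19 and -1.44, Rrm2, which makes deoxynucleotides, at -1.15 and -1.42, and Ccnb1, a mitotic cyclin, at -1.75 and -1.07. The rule removed cycling cells from members and reference alike, by Top2a and Mki67. Krt8, a keratin of the epithelial list, stood at 9.11 against 201 CPM in KPC (-4.46) and 5.27 against 13.9 CPM in PyMT (-1.40). Sdc1, a cell surface proteoglycan, had ratios of -2.13 and -1.37, and Lgals3, a galectin, -2.98 and -1.37. With members taken at a rule sum of at least 3, the KPC ratios of Lgals3 and Ccnb1 were 0.16 and 0.052, so their direction in KPC rests on the threshold.

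Some genes that set the members of the libraries apart also set the reference BECs apart, and others did not. Of 7277 genes 488 were at least 2-fold higher in KPC members (6.71%) and 277 in PyMT members (3.81%). With trimmed mean (TMM) scaling, which moved all KPC over PyMT ratios by -0.15, the counts were 325 and 422, so the balance of direction depends on the scaling. Tagln, a smooth muscle actin-binding protein, stood at 468 CPM in KPC and 8.56 CPM in PyMT members (log2 5.77). The summed pericyte genes stood at 368 CPM in KPC and 123 CPM in PyMT members, and their part in this gap was not tested. Angpt2 stood at 419 against 83.0 CPM (2.34), with a log2 ratio of 0.56 between the reference BECs, and Hspa1a at 244 against 32.9 CPM (2.89), with 3.67 between the reference BECs. Aftph was lower in KPC members at -1.03 and stood at 0.43 between the reference BECs. Bmp2, a growth factor of the TGF-beta family, stood at 9.11 against 248 CPM (-4.77), with 10.6 and 90.5 CPM in reference BECs. Ubd, a ubiquitin-like modifier induced by inflammatory cytokines, stood at 7.28 against 126 CPM (-4.11), with a ratio of members over reference of -0.24 in KPC and 1.84 in PyMT. Cxcl9 was lower in KPC by 2.37 on the log2 scale in members and by 2.20 in reference BECs. Without the KPC member with a rule sum of 187, KPC members stood at 20.5 CPM of Cxcl9 from 11 UMIs, against 357 CPM in PyMT, a wider gap.

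The interferon ratios themselves were somewhat larger in PyMT. Of 163 genes called higher in members of either library, 73 were interferon list genes, and 63 of these had the larger log2 ratio in PyMT, with a median difference of -0.30 for KPC minus PyMT. Of the other 90 genes 58 had the larger ratio in PyMT (64.4%), with a median difference of -0.22, and of all 7264 genes with a ratio in both libraries 3789 did (52.2%). For 28 of the 73 the counting interval of the difference lay below 0, and for 1 above. Iigp1 gave one of the wider gaps, at 2.36 against 3.52, and Isg20 at 2.66 against 4.22. The reference BECs of KPC held more Iigp1, at 138 against 49.8 CPM. PyMT members also had the higher rule sums, with a median of 9 against 7 in KPC, and levels climbed with the rule sum. Ratios were not compared at equal rule sums, and the part of the rule sum in these gaps was not tested. With 1 library per model these gaps have no replicate error to be set against.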

How the data were processed

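UMI counts were obtained from the 2 gene by cell matrices that the authors deposited, 1 per tumor model, with 31055 features each. According to the methods and file headers the authors made these counts with Cell Ranger 3.0 (3.0.2 in the file header) on mm10, without normalization. The kit version is given differently in the sources and was not settled. Values were read with Python 3.11.15, numpy 2.4.6, scipy 1.17.1 and pandas 2.3.3. Barcodes with under 500 genes or at least 10% mitochondrial UMIs were removed, 645 of 10236 in KPC and 720 of 12464 in PyMT. BECs, members and reference cells were then chosen as described, and UMIs were summed over the cells of a group. Depth was 549081 UMIs over the KPC members and 1518219 over the PyMT members. Intervals of levels are exact Poisson, those of log2 ratios exact conditional binomial and those of shares exact Clopper-Pearson, all at 95%. Cells are not replicates, so no p-value was computed. Genes at 0 were limited to 3 UMIs. Vessel class and GTPase shares and the number of interferon list genes per cell used cells thinned to 2000 UMIs, without the shallower cells. Shares of cells with a UMI of a single gene were not thinned. Doublets were scored with scanpy 1.11.5 (Scrublet), which marked 0 cells in either library and so did not work at its own threshold. Doublets were therefore kept, and leaving out the 8% of barcodes with the highest scores was an alternative, to which 6 KPC members (5.00%) and 21 PyMT members (7.37%) belonged. Genes named as highest were the 20 called higher in both libraries with the largest value of the smaller log2 ratio, and those named as lowest the 15 lowest by the same measure. Those named between libraries came from 8 genes on either side, each at least 2-fold higher in members than in reference BECs in a library. Genes not called higher, such as Cxcl12 at a gap of 2.77, were not among them, though some had larger gaps. Promoters came from RefSeq (GRCm38.p6) and gene positions from the GENCODE annotation of mm10. TMM scaling used edgeR 4.0.16 in R 4.3.3 as an alternative. Log2 ratios and their intervals were run on simulated sums with known changes. These sums were drawn without variation between cells, so they check the calculation alone. They cannot show how the intervals hold where 1 cell carries much of a gene. Some genes that the list counts include are not reported by name here. The members and gene lists were chosen with earlier results of these data known.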

Additional observations from a re-analysis of the deposited data

Results flagged for a closer look

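In 4 genes the members of the 2 libraries moved in opposite directions relative to their reference BECs, and the difference was not tested, since each model had 1 library. They were taken from 36 genes whose counting intervals lay on opposite sides of 0, as those past 2-fold in a library with at least 10 member UMIs in both. Spp1, which encodes osteopontin, had a log2 ratio of -2.17 in KPC (184 against 828 CPM) and 0.20 in PyMT (250 against 218 CPM), a difference of -2.37, with 63.4% and 48.3% of its member UMIs in 1 cell. Without that cell PyMT members stood at 130 CPM (-0.75), so the opposite direction in PyMT rests on it. Tagln had 1.11 in KPC and -0.81 in PyMT, a difference of 1.92, and the pericyte genes that moved with it are given above. Sgo2a, a protector of chromosome cohesion, had 1.06 and -0.79, a difference of 1.85. Angpt2 had 1.20 and -0.58, a difference of 1.78.

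A rule sum of at least 5 was also seen in cells outside the BEC gate, which no comparison used. Of cells with at least 2 UMIs of the lymphatic gene Mmrn1, 13 of 675 in KPC (1.93%, 1.03 to 3.27%) and 14 of 517 in PyMT (2.71%, 1.49 to 4.50%) reached it. Of KPC cells with at least 2 UMIs of the fibroblast gene Col1a2, 11 of 492 did (2.24%, 1.12 to 3.97%).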

How the results depend on the processing

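No paired analysis was possible because each tumor model had 1 library, so no replicate could be paired or left out either. The 20 highest genes kept a log2 ratio of at least 1 in 560 of 560 alternatives, and the 15 lowest genes stayed at or under -1 in 359 of 413. The 20 were picked from these same data for their ratios, the smallest of which was 2.34. Every alternative also kept the choice of members by the rule genes. The outcome for the 20 was thus largely fixed in advance and is no independent support. Of the summary values 93 stayed near the main value, 29 moved and 0 reversed. The alternatives that leave out the member of highest rule sum or the member highest for Spp1 were chosen after seeing the data. So were those that leave out cells with at least 3 leukocyte or at least 3 epithelial or tumor marker UMIs. The level taken over BECs that are not members was also chosen after seeing the data.

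The share of members followed its definition. With a rule sum of at least 3 it was 4.07% in KPC and 4.43% in PyMT, and with at least 10 it was 0.527% and 1.36%. With stricter barcode filters (1000 genes, 5% of UMIs mitochondrial) it was 2.04% and 3.10%. After thinning to 2000 UMIs it was 0.930% and 1.56%, of the 4626 and 9203 BECs with at least that many. With cycling cells allowed the PyMT share was 3.26%. A threshold of 10 rule UMIs per 10000 gave 6.05% in KPC and 3.44% in PyMT, which turned the order of the libraries. Counts of genes called higher were 311 in KPC with a rule sum of at least 10, 62 and 75 in KPC and PyMT with a level of 30 CPM, and 942 and 804 with no level filter, where fewer or more genes were tested. Counts called lower in KPC and PyMT were 116 and 38 with a rule sum of at least 3, 937 and 307 with at least 10, 89 and 11 at 30 CPM and 787 and 565 with no level filter. Genes apart between the libraries numbered 1291, 242 and 1797 under the last 3 settings. Interferon list genes seen per member at 1000 UMIs had medians of 19 in KPC and 19.5 in PyMT.

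In KPC, with a rule sum of at least 3 the median of red cell and platelet markers was 4.15, Lgals3 stood at 0.16, S100a4 at 0.50, Ccnb1 at 0.052 and Ccne1 at 0.012, and with at least 10 Ccne1 stood at 0.024. With no UMI of the other-cell gate genes allowed, the median of the MHC class II list was -0.33 and Cd74 stood at -2.09. Without cells holding at least 3 leukocyte marker UMIs the list's median was -0.046 and Cd74 stood at -1.96. In PyMT, Spp1 stood at -0.75 without the member highest for it, and members had the larger venular and tip shares without thinning and the smaller ones with it. In KPC the venular shares of members and reference BECs were 29.5% and 43.1% with thinning, and 43.3% and 43.0% without it. The KPC members held 549081 UMIs, so a gene at 10 CPM gave about 5 UMIs there, and calls of lower genes rest on few UMIs. Apart from the settings that change the cells or genes tested, the cause of these changes was not tested.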

Other observations

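Cycling BECs, those with more than 1 UMI of Top2a and Mki67, were sequenced more deeply than other BECs, with medians of 6705 against 2604 UMIs per cell in KPC and 6768 against 3713 in PyMT, and the rule sum is not scaled for depth, so the rates of cells that reached a rule sum of 5 are given side by side. In KPC 14 of 852 cycling BECs reached it (1.64%, 0.901 to 2.74%) against 1.89% of non-cycling BECs (1.57 to 2.25%). In PyMT 52 of 1545 reached it (3.37%, 2.52 to 4.39%) against 3.24% (2.88 to 3.63%). No KPC cell of 134 in the epithelial gate or of 40 in the pericyte gate reached it.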
